A study of Mus musculus with 2 samples.

Results

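The naive T cell program was followed in single cells through 10 genes: the transcription factors Tcf7, Lef1, Bcl11b, Satb1, Foxp1 and Klf2, the receptors Il7r and S1pr1, and Dapl1 and Igfbp4. They are 10 of the 32285 gene rows in each matrix and were taken by symbol, with 1 row for each symbol. The study profiled leukocytes of female BALB/cAnNCrl mice, aged 7 to 8 weeks, that carried 4T1 mammary tumor metastases in the liver after tumor cells were given through a hemisplenectomy procedure. Mice received hepatic arterial infusions of vehicle or of CBL0137, at the lower (low dose) or the higher (high dose) of its levels. CBL0137 is a curaxin that binds DNA and traps the histone chaperone FACT on chromatin. The sources used here give no amount for either level. Cells of 2 mice were pooled per group and taken 5 days after treatment, and all groups carried the tumor and the surgery. The labels describe leukocytes from a density gradient, whereas the study's methods describe cells selected for CD11b, a myeloid surface protein, and whether the T cells passed through that selection is not given.

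Naive T cells circulate between blood and lymphoid organs until they meet antigen, and a small set of transcription factors keeps them quiescent and able to respond. TCF1 (Tcf7) and LEF1 maintain T cell identity and self-renewal, FOXP1 and KLF2 hold cells at rest, and BCL11B and SATB1 set T lineage chromatin. The interleukin-7 receptor provides a survival signal and S1PR1 guides the exit from lymphoid organs, and both receptors are known to be lowered when T cells become effector cells.

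Cells of the 3 groups were mixed before capture and told apart by an antibody-bound oligonucleotide, the hashtag. The hashtag oligos are shown because every group value below rests on them:
A0301 (vehicle): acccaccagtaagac
A0305 (low dose): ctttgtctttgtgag
A0310 (high dose): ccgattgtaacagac

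T cells were barcodes with at least 2 unique molecular identifiers (UMIs, counted RNA molecules) of Cd3d, Cd3e and Cd3g together, CD4 cells held Cd4 and no Cd8a or Cd8b1 UMI, and CD8 cells the reverse. With a single hashtag there were 3098 T cells among 9591 barcodes in the library labelled liver, and 459 among 4830 in the library labelled spleen. By group these were 821, 1127 and 1150 cells (vehicle, low dose, high dose) in the former library, with median depths of 5071 to 5344 UMIs. The library labelled spleen held 76, 164 and 219 T cells, with median depths of 6187 to 9605 UMIs. The CD4 gate took 216, 293 and 410 cells in the first library and 4, 16 and 44 in the second. The CD8 gate took 187, 265 and 290 cells and 33, 59 and 104 cells. Shared between the libraries were 15 barcode sequences, of which 1 was a T cell in both.

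The tissue names are uncertain. Transcripts of hepatocytes (Alb, Apoa1, Ttr and Serpina1c summed) reached 0 to 0.117 UMIs per 1000000 in the T cells of the library labelled liver and 24.2 to 43.7 in those of the library labelled spleen, which goes against the labels. The deposited files name the tissues the other way round from the labels, so each library is called here by its label only. Each group and library is 1 pooled sample, so there was no test and no p-value. Levels are UMIs per 1000000 UMIs of the same cells (CPM), with exact 95% Poisson intervals, and differences are log2 ratios with exact conditional 95% intervals, both covering counting error only. A gene was called past the fold when its ratio was at least 1.5 either way, its interval stayed clear of 1, and it had at least 50 UMIs over both groups.

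In the library labelled liver, the 10 genes summed to 4215 CPM (4106 to 4326) in vehicle CD4 cells, 4466 (4362 to 4572) at the low dose and 4432 (4351 to 4514) at the high dose. The mean of single-cell CPM put the low dose below vehicle instead, at 5101, 4904 and 5238 CPM by group. In CD8 cells the sums were 4036 (3925 to 4150), 4014 (3917 to 4114) and 4589 (4495 to 4686). High dose CD8 cells thus stood apart from the other CD8 groups, by a log2 ratio to vehicle of 0.19 (0.14 to 0.24), while the CD4 ratio was 0.07 (0.03 to 0.12). Neither ratio held under every setting: with each cell thinned to 1000 UMIs the CD8 ratio was -0.014, and without cells holding a B cell, neutrophil or macrophage UMI the CD4 ratio was -0.080. No member was past the fold in CD4 cells, where 11.0% of 6910 genes were. In CD8 cells 1 of the 10 was, against 6.69% of 5961 genes. All 10 members had at least 50 UMIs in both comparisons. The members' median log2 ratio was 0.09 in CD4 and 0.16 in CD8 cells, and that of all genes 0.05 and -0.04. At the low dose 0 of 10 members were past the fold in CD4 cells (9.05% of all genes) and 0 of 10 in CD8 cells (5.51%).

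**Figure D1:**
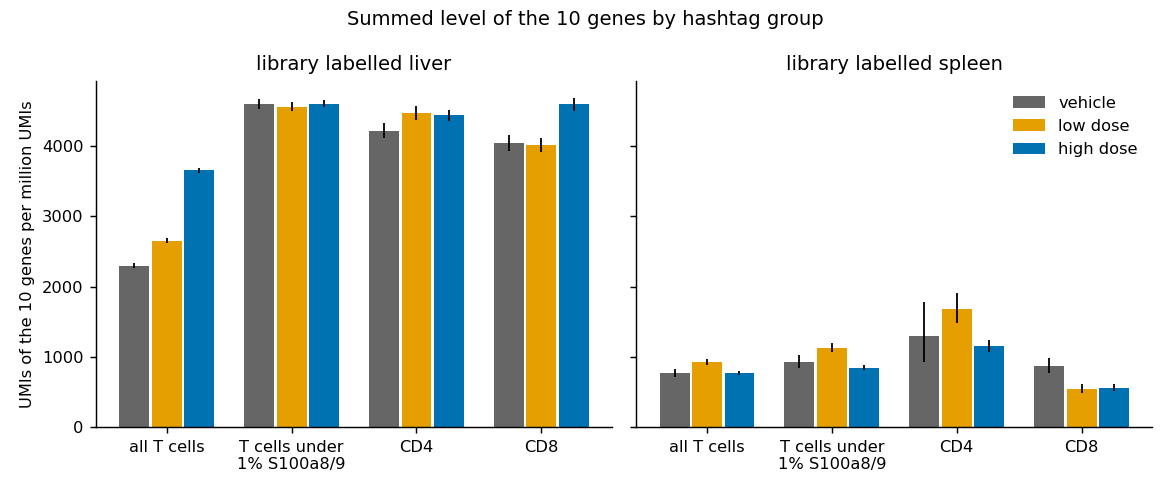
Bars give the UMIs of the 10 genes per 1000000 UMIs in each hashtag group of both libraries, for all T cells, for T cells with S100a8 and S100a9 under 1% of UMIs, and for CD4 and CD8 cells, and lines give 95% counting intervals. In the library labelled liver the all-T-cell bars climb from 2296 to 3649, the bars under 1% S100a8 and S100a9 lie at 4553 to 4597, and the bars of the library labelled spleen reach at most 1686.

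The pooled T cell gate gave other values, and its barcodes were not alike across the groups. Over all T cells of the library labelled liver the summed level was 2296 CPM in vehicle, 2650 at the low dose and 3649 at the high dose, a log2 ratio of 0.67 (0.64 to 0.69) for the high dose, with 9 of 10 members past the fold, all upward, against 25.7% of 9766 genes upward and 33.1% either way. Klf2 alone was not past it, at 0.30 (0.25 to 0.36). At the low dose none was past the fold, against 5.30% of 9614 genes.

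S100a8 and S100a9, which encode the calprotectin subunits abundant in neutrophils, held at least 1% of UMIs in 21.3% of vehicle T cell barcodes, 19.6% at the low dose and 5.30% at the high dose. The summed level of 7 neutrophil transcripts, none of them at 0, was lower in the same order, from 219304 CPM through 195412 to 79397 CPM. Most of these barcodes had neither Cd4 nor Cd8, and in that fraction a T cell receptor constant region UMI was found in 62.7%, 65.5% and 89.3% of barcodes. Without barcodes at or over 1%, a choice made after seeing the data, the summed level was 4594, 4553 and 4597 CPM, the high dose ratio was 0.00094 (-0.03 to 0.03), and 0 of 10 members were past the fold, against 6.71% of 9017 genes. A T cell receptor UMI was found in 99.2% to 100% of CD4 and CD8 cells. Such barcodes made up 0.244% to 4.81% of CD4 and CD8 cells by group, and the members are described in those gates. The gates were not free of the imbalance. Vehicle CD8 cells held 1240049 UMIs with such barcodes and 1095033 without, and high dose CD8 cells 1946470 and 1890741. Without them the members' median high dose ratio was 0.04 in CD4 and 0.07 in CD8 cells. Members with a CD4 interval above 0 then went from 4 to 1. The cause of the uneven share of these barcodes across the groups was not tested.

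Tcf7 (chr11:52252371-52283014, minus strand, GRCm38) and Lef1 (chr3:131110471-131224356, plus strand) encode the paired HMG-box factors that act with beta-catenin. Tcf7 in CD4 cells read 295 CPM in vehicle, 384 at the low dose and 335 at the high dose. In CD8 cells it read 329.8, 386 and 324. By summed CPM the low dose group was thus highest in both gates. Its log2 ratio to vehicle was 0.38 (0.19 to 0.57) in CD4 and 0.23 (0.04 to 0.41) in CD8 cells. The high dose interval in CD8 cells, -0.21 to 0.16, reached both sides of 0. In CD8 cells the mean of single-cell CPM kept the order, at 359, 411 and 335. Shares of CD8 cells with a Tcf7 UMI after thinning to 500 UMIs did not, at 15.5%, 15.5% and 14.5%. Lef1 read 475, 509 and 464 CPM in CD4 cells and 439, 439 and 479 in CD8 cells, and all 4 of its ratios to vehicle had intervals that reached 0. A difference between the paired factors was not tested.

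Bcl11b (chr12:107910403-108003602, minus strand), the zinc finger factor of T lineage commitment, read 319, 345 and 363 CPM in CD4 cells, with groups in the same order. In CD8 cells it read 222, 225 and 251. The CD4 ratio of the high dose, 0.19 (0.02 to 0.35), was just clear of 0 and the CD8 ratio, 0.18 (-0.04 to 0.40), was not. The mean of single-cell CPM put the low dose lowest in CD4 cells, at 393, 367 and 400 by group. Satb1 (chr17:51736187-51833290, minus strand), which organizes chromatin loops in T cells, read 365, 454 and 345 CPM in CD4 cells. The low dose was highest there, at 0.32 (0.15 to 0.49) over vehicle, and in CD8 cells, at 386, 383 and 429 CPM, it was level with vehicle.

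Foxp1 (chr6:98925338-99522721, minus strand), a forkhead factor of T cell quiescence, read 265, 314 and 338 CPM in CD8 cells. The high dose lay above vehicle by 0.35 (0.16 to 0.55). In CD4 cells Foxp1 read 294, 355 and 312 CPM, with the low dose highest. Klf2 (chr8:72319033-72321656, plus strand), which drives S1pr1 transcription, was the steadiest member by summed CPM. It read 773, 802 and 812 CPM in CD4 cells and 799, 779 and 805 in CD8 cells. The mean of single-cell CPM was less steady in CD4 cells, at 815, 828 and 924, and read 867, 813 and 844 in CD8 cells. The 4 Klf2 ratios to vehicle lay between -0.04 and 0.07, and each interval reached 0.

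Il7r (chr15:9505788-9530176, minus strand), the alpha chain of the interleukin-7 receptor, was lowest at the low dose in both gates. It read 911 CPM (861 to 964) in vehicle CD4 cells, 735 (693 to 778) at the low dose and 886 (850.0 to 923) at the high dose. In CD8 cells it read 907 (855 to 962), 732 (691 to 775) and 1039.8 (995 to 1086). The low dose lay below vehicle by the same log2 ratio of -0.31 in both gates, with intervals of -0.43 to -0.19, which is short of the fold. Within CD4 cells with no UMI of 6 effector genes (Ccl5, Ccl4, Nkg7, Gzma, Gzmb and Gzmk) the low dose ratio was -0.40 (-0.53 to -0.28), and within CD8 cells it was -0.42 (-0.71 to -0.14) without and -0.47 (-0.62 to -0.33) with effector transcripts, here at least 2 such UMIs. Within the 13 and 15 CD4 cells with effector transcripts it was 0.86 (0.40 to 1.32). That value rests on few cells and its interval leaves out their spread, so no difference between states is read from it. Of 9 other genes of the interleukin-7 path, 0 of 9 in CD4 cells and 2 of the 7 with 50 UMIs in CD8 cells were past the fold at the low dose, against 9.05% and 5.51% of all genes. These were Stat5b, upward at 0.63, and Bcl2, a survival gene, downward at -0.61. Without barcodes at or over 1% S100a8 and S100a9 Stat5b was no longer past the fold, at 0.56 (-0.06 to 1.21), and Bcl2 was, at -0.66.

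S1pr1 (chr3:115710433-115715072, minus strand), the egress receptor, read 255, 335 and 273 CPM in CD4 cells. The low dose stood above vehicle by 0.39 (0.20 to 0.60) and above the high dose. In CD8 cells S1pr1 read 229, 251 and 215 CPM, and the intervals of both ratios to vehicle reached 0. By summed CPM, Satb1, Tcf7, S1pr1 and Foxp1 were thus each highest at the low dose in CD4 cells, where Il7r was lowest. The mean of single-cell CPM kept that order, with small gaps from vehicle to low dose for Satb1 (469 and 502) and Foxp1 (373 and 387). In shares of cells thinned to 500 UMIs Tcf7 kept it, at 13.0%, 18.4% and 14.1% by group. Satb1 (20.4%, 19.5% and 20.0%), Foxp1 (18.5%, 16.7% and 15.6%) and S1pr1 (14.8%, 16.0% and 17.6%) did not.

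Dapl1 (chr2:59484653-59505020, plus strand) was the 1 member past the fold, and this in CD8 cells. There it read 282 CPM (253 to 313) in vehicle, 254 (229.8 to 279.8) at the low dose and 445 (416 to 476) at the high dose. The high dose group alone was raised, by a log2 ratio of 0.66 (0.48 to 0.84) over vehicle and 0.81 (0.64 to 0.98) over the low dose, while the low dose ratio to vehicle was -0.15 (-0.36 to 0.06). In CD4 cells it read 153, 148 and 219 CPM, with a high dose ratio of 0.52 (0.29 to 0.76), just short of the fold. The difference from vehicle was not seen in T cells with neither Cd4 nor Cd8 and under 1% S100a8 and S100a9. Among these 248 vehicle and 374 high dose cells the highest ratio of any member was 0.051. Against the low dose, the high dose Dapl1 ratio in these cells was 0.62. Within the CD4 and CD8 gates the difference from vehicle was seen in the cell states given next. Dapl1 read 159 CPM in vehicle and 262 in high dose CD4 cells with no effector transcript, a ratio of 0.72 (0.47 to 0.97). In CD8 cells it read 170.3 and 328 CPM without effector transcripts, a ratio of 0.94 (0.31 to 1.61), and 317 and 468 CPM with them, a ratio of 0.56 (0.36 to 0.76). When the CPM of single cells was averaged instead, so that deep cells did not weigh more, the CD8 ratio was 0.45, under the fold. With each cell thinned to 1000 UMIs it was 0.30 (-0.14 to 0.76).

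Igfbp4 (chr11:99041244-99054392, plus strand), a secreted binding protein of insulin-like growth factors, read 177 CPM (155 to 203) in vehicle CD8 cells, 251 (227 to 277) at the low dose and 264 (242 to 288) at the high dose. Both doses were above vehicle, by 0.50 (0.26 to 0.75) and 0.57 (0.34 to 0.81), and did not differ from each other beyond counting error. The mean of single-cell CPM kept the order, at 202, 268 and 278. Shares of CD8 cells with an Igfbp4 UMI were 50.3%, 55.5% and 60.0%. With cells thinned to 500 UMIs the low dose share was not above vehicle, at 12.1% (8.4% to 16.6%) against 13.4% (8.8% to 19.1%). In CD4 cells it read 375, 399 and 423 CPM, with ratios of 0.09 and 0.17.

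**Figure D2:**
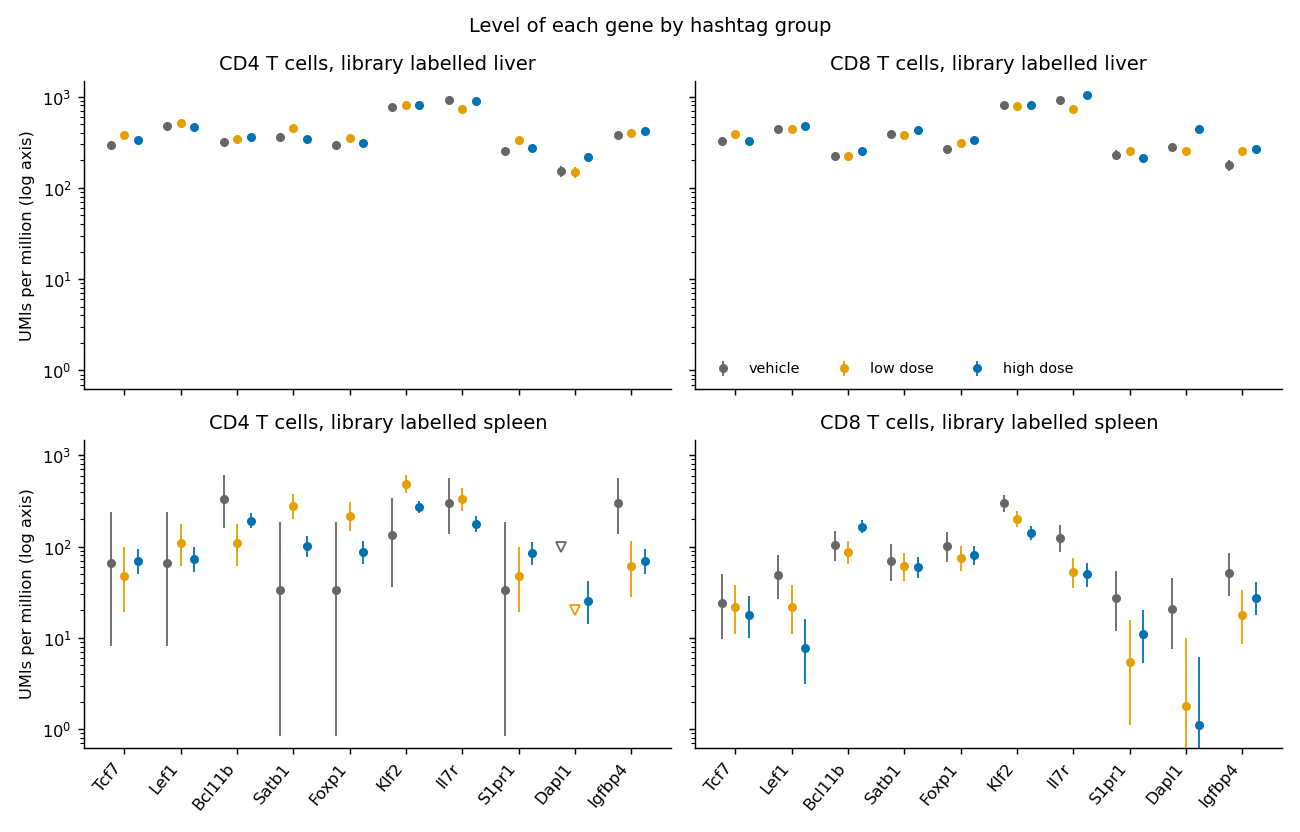
Points give the CPM of each gene on a log axis in CD4 and CD8 cells of both libraries, by hashtag group, lines give 95% counting intervals, and open triangles mark the limit that a count of 0 allows. In the library labelled liver the groups of each gene lie close together, and Dapl1 in CD8 cells, at 282, 254 and 445, shows the widest gap of the high dose from vehicle.

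**Figure D3:**
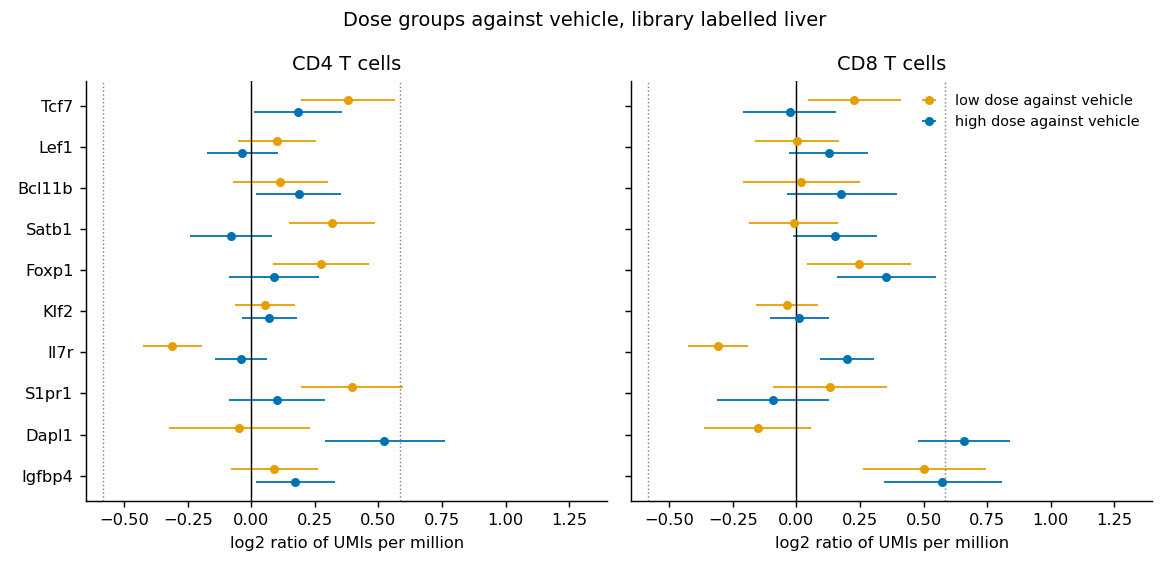
Points give the log2 ratio of each dose to vehicle for each gene in CD4 and CD8 cells of the library labelled liver, lines give 95% counting intervals, and dotted lines mark 1.5-fold. Dapl1 at the high dose in CD8 cells (0.66) lies past the dotted line, and Il7r at the low dose (-0.31) lies below 0 in both panels.

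CD4 and CD8 cells of the library labelled liver shared the program's level, 4388 and 4253 CPM over all groups, and differed in 4 of the 10 genes by over 0.3 on the log2 scale. Dapl1 was higher in CD8 cells, at 339 against 183 CPM, a log2 ratio of 0.89 (0.78 to 1.01), and in each group the ratio lay between 0.78 and 1.02. Igfbp4 was lower in CD8 cells, at 237 against 405 CPM, a ratio of -0.77 (-0.87 to -0.67). Bcl11b and S1pr1 were lower in CD8 cells as well, by -0.56 (-0.67 to -0.46) and -0.31 (-0.43 to -0.20). The S1pr1 ratio was -0.16 (-0.39 to 0.08) in vehicle. The other 6 genes had ratios between -0.08 and 0.09 over all groups, but not in each group: Satb1 was at -0.25 (-0.40 to -0.09) at the low dose and 0.31 (0.18 to 0.45) at the high dose, Il7r at 0.23 (0.14 to 0.32) at the high dose and Lef1 at -0.21 (-0.36 to -0.07) at the low dose.

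T cells were then split by transcripts that are not members: cells with no UMI of the 6 effector genes named above, and cells with at least 2. Of CD4 cells 88.2% were of the first kind and 5.66% of the second. Cells without effector UMIs were shallower, with median depths of 4847 against 6868.5 UMIs in CD4 and 4481.5 against 6445 in CD8 cells, and the part of depth in this split was not tested. The members were lower in effector-transcript CD4 cells, 2098 against 4813 CPM, and each of the 10 had an interval clear of 0. Igfbp4 differed most, at 475 against 37.1 CPM, a log2 ratio of 3.68 (3.06 to 4.37), followed by Lef1 at 2.41 (2.04 to 2.81), and Klf2 least, at 0.29 (0.13 to 0.44).

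CD8 cells were different. Of them 68.3% held at least 2 effector UMIs and 17.8% held none, yet the summed level of 4244 CPM in effector-transcript CD8 cells was close to the 4449 CPM of cells without, a ratio of 0.07 (0.01 to 0.13). Tcf7 read 337 CPM with and 376 without effector transcripts, and Lef1 448 and 474, and both intervals of the ratio reached 0. Il7r was higher in cells without effector transcripts, at 1062 against 876 CPM, a ratio of 0.28 (0.16 to 0.40). Dapl1 ran the other way, at 379 CPM in effector-transcript cells against 201, a ratio of -0.91 (-1.19 to -0.65). The shares of CD8 cells with effector transcripts were 68.4%, 64.5% and 71.7% by group, and their exact binomial intervals overlapped.

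CD4 cells with a UMI of Foxp3, the factor of regulatory T cells, made up 7.51% of CD4 cells and summed to 2325 CPM against 4625 without it. Igfbp4 at 7.08 against 450.1 CPM and Dapl1 at 12.4 against 202 were nearly absent from them. Tcf7, Satb1 and Lef1 were lower by -2.50, -2.11 and -1.99 on the log2 scale. Bcl11b and Klf2 differed least, at -0.20 (-0.43 to 0.03) and -0.14 (-0.29 to 0.0043).

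**Figure D4:**
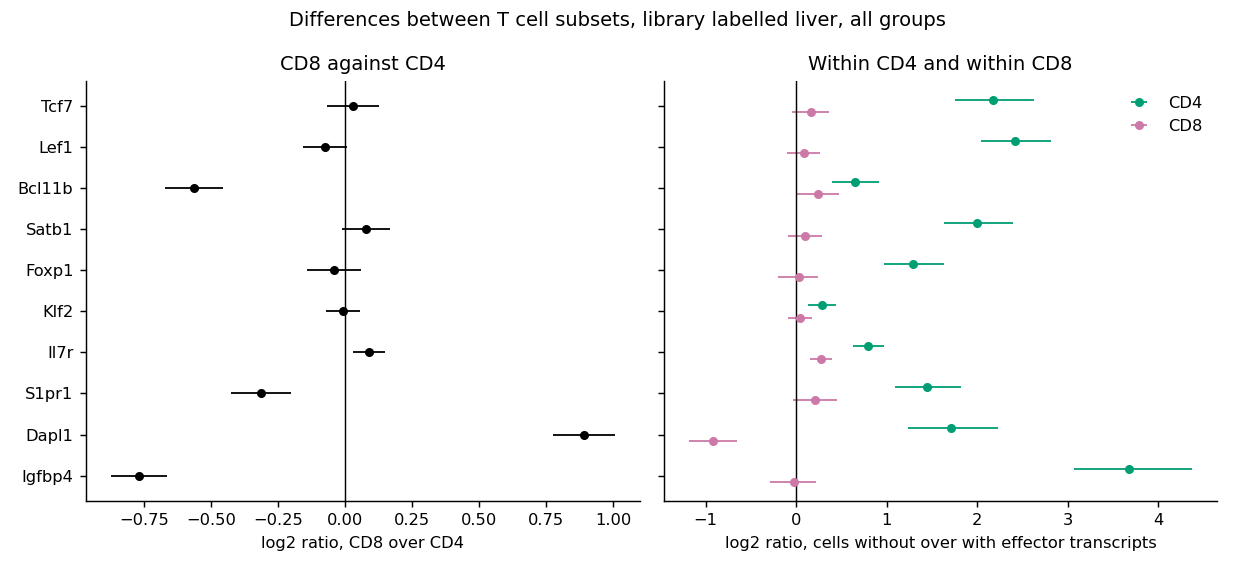
The left panel gives the log2 ratio of CD8 over CD4 cells for each gene, and the right panel the ratio of cells with no effector UMI over cells with at least 2, within CD4 and within CD8, all in the library labelled liver with groups together and 95% counting intervals. Dapl1 lies farthest right in the left panel (0.89) and farthest left for CD8 in the right panel (-0.91), and Igfbp4 in CD4 cells lies farthest right there (3.68).

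Shares of cells were compared after each cell was thinned to 1000 UMIs. At least 3 of the 10 genes were then detected in 67.8%, 70.9% and 66.9% of CD4 cells by group and in 70.1%, 62.0% and 69.7% of CD8 cells. Before thinning the shares were 97.7% to 99.0%, and thinning left out 0 to 3 cells per group. Barcodes gated as B-type by their own markers stood at 6.27% to 12.0%, and neutrophil-type barcodes at 0% to 0.792%. NK-type barcodes, 30, 58 and 46 by group, stood at 10.0%, 10.3% and 15.2%. Each of these gates also required that no Cd3d, Cd3e or Cd3g UMI was present. Median depths were 4668 to 6321 UMIs in the CD4 and CD8 gates, 3449 to 3670 in B-type and 3737 to 17343 in neutrophil-type barcodes. In NK-type barcodes they were 3428 to 4012.5 UMIs. By gene, Tcf7 and Bcl11b were found in at most 0.522% of B-type and neutrophil-type barcodes, below their T cell shares of 17.1% to 31.8%. Barcodes with stray Cd3 RNA were left out of those gates, so they cannot measure the level of free T cell RNA. Klf2 was found in 27.7% to 57.9% of B-type and neutrophil-type barcodes and read 1114 to 1205 CPM in NK-type barcodes. Foxp1 and Satb1 were found in 44.7% to 47.1% and 15.2% to 28.3% of B-type barcodes. These genes were thus not limited to T cells.

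In the library labelled spleen the summed members were lower, by 4.63-fold to 8.20-fold in CD8 cells and 2.65-fold to 3.85-fold in CD4 cells of the same group. Single members differed less in places: Bcl11b was 1.52-fold lower in high dose CD8 cells and not lower in vehicle CD4 cells, at 334 against 319 CPM. The vehicle CD4 values of the library labelled spleen rest on 4 cells, and 6 of the 10 Bcl11b UMIs came from 1 of them. CD8 cells summed to 871 CPM (767 to 985) in vehicle, 547 (487 to 612) at the low dose and 559.8 (512 to 611) at the high dose. Both doses were below vehicle, by -0.67 (-0.92 to -0.42) and -0.64 (-0.86 to -0.41), while the median of all genes tested was 0.02 and 0.10. Of the 5 members with 50 UMIs at the high dose, 3 were past the fold, against 10.3% of 3638 genes. Klf2 read 300.6, 201 and 139.9 CPM, a high dose ratio of -1.10 (-1.51 to -0.69), and Il7r 124, 52.2 and 49.6 CPM, a ratio of -1.33 (-1.99 to -0.65). Bcl11b went the other way, at 104, 88.1 and 165 CPM, a ratio of 0.67 (0.10 to 1.29). At the low dose the Klf2 ratio was -0.58 (-0.99 to -0.16), that of Il7r -1.25 (-2.01 to -0.51), and 1 of 5 members was past the fold, against 10.9% of 2473 genes.

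The other members rested on few molecules there. Lef1 had 14, 12 and 7 UMIs in the CD8 cells of the 3 groups, or 48.4, 21.6 and 7.71 CPM, and Tcf7 had 7, 12 and 16. All 6 Dapl1 UMIs of vehicle CD8 cells came from 1 cell, and each dose group held 1 Dapl1 UMI. S1pr1 had 8, 3 and 10 UMIs, and Satb1, Foxp1 and Igfbp4 had high dose intervals that reached 0. The median CD8 cell carried 636, 427 and 450.0 CPM of the members in the 3 groups and the mean cell 1328, 737 and 636, so a few cells held much of the vehicle level. Of the 33, 59 and 104 CD8 cells, 1, 2 and 1 held no effector UMI, and 93.9%, 94.9% and 99.0% had at least 2 effector UMIs. CD4 cells numbered 4 in vehicle, so their sums of 1302, 1686 and 1152 CPM are given with no ratio to vehicle.

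Over all T cells of that library the sums were 769, 927 and 773 CPM, and 4 of the 9 members with 50 UMIs were past the fold at the high dose, Bcl11b, S1pr1 and Satb1 upward and Klf2 downward, against 26.6% of 6734 genes. S100a8 and S100a9 held at least 1% of UMIs in 30.3%, 28.0% and 9.59% of those barcodes. Hashtag calls also touched this library: 79 T cells had no call, in all of them the high dose hashtag was the dominant one at a median of 668 UMIs, against 1493 in called high dose T cells, and their members summed to 2443 CPM (2265 to 2631). Their part in the high dose values was not tested beyond the other hashtag callers.

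**Figure D5:**
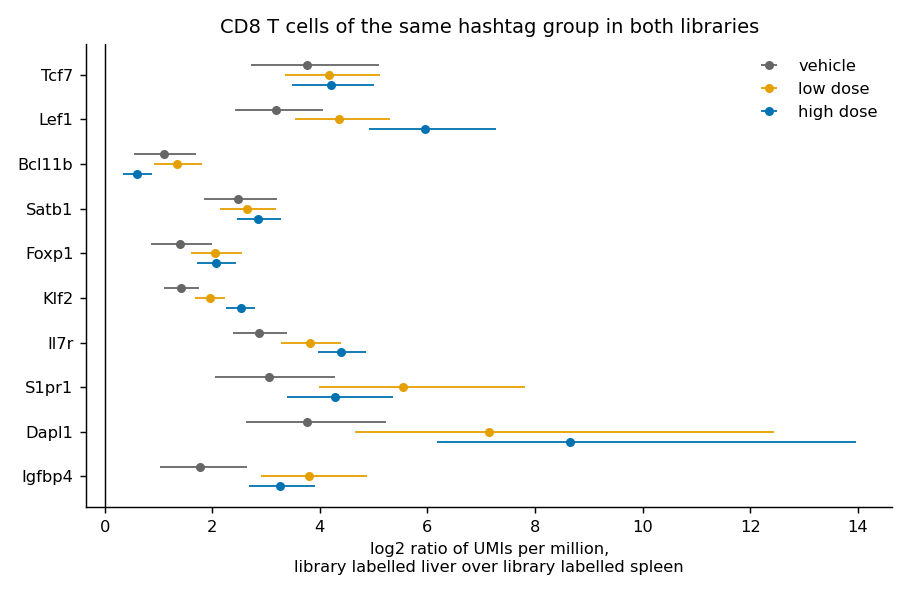
Points give, for CD8 cells of each hashtag group, the log2 ratio of each gene's CPM in the library labelled liver over the library labelled spleen, with 95% counting intervals. Every point lies above 0, Bcl11b nearest to it (0.60 to 1.35), and Lef1, S1pr1 and Dapl1 reach past 5 in at least 1 group, on few molecules in the library labelled spleen.

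Between the libraries, CD8 cells of the same hashtag group differed in the sum by a log2 ratio of 2.21 (2.03 to 2.40) in vehicle, 2.88 (2.71 to 3.05) at the low dose and 3.04 (2.91 to 3.17) at the high dose, the library labelled liver being higher. Tcf7 differed by 3.77, 4.16 and 4.20 and Il7r by 2.87, 3.81 and 4.39. Bcl11b, at 1.10, 1.35 and 0.60, differed least in each group. The libraries are 2 separate preparations, so tissue and library cannot be told apart. With groups together, CD8 cells of the library labelled spleen summed to 607 CPM and CD4 cells to 1261, and the CD8 sum was the lower one in each group. Single members did not all follow within groups: in vehicle, with 4 CD4 cells, Klf2 read 300.6 CPM in CD8 and 134 in CD4 cells. Only Il7r, Bcl11b and Igfbp4, all lower in CD8 cells, had ratios in vehicle with intervals clear of 0. Dapl1 had 6, 1 and 1 UMIs in CD8 cells by group and 0, 0 and 15 in CD4 cells, the 15 in 4 cells with 8 in 1 of them, so no order is read from it.

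Genes of related lists gave the setting for the members in the library labelled liver at the high dose. Among 11 companions of the naive state (Ccr7, Bach2, Ets1 and others) 0 were past the fold in CD4 or CD8 cells, with median ratios of 0.11 and 0.063. The shares of all genes past the fold, against which each count here is to be read, were 11.0% in CD4 and 6.69% in CD8 cells, and 9.66% and 4.97% without barcodes at or over 1% S100a8 and S100a9. Of 19 effector and memory genes, 13 had 50 UMIs in CD4 cells, and 8 were higher and 2 lower. The granzymes Gzma, on 2 and 171 UMIs (log2 5.48, 3.60 to 8.54), and Gzmb (2.54) led them, and Zeb2 (-1.68) and S100a6 (-0.79) were the lower pair. Without the S100a8 and S100a9 barcodes 8 were higher and 1 lower, and S100a6 was at -0.25. Few CD4 cells held effector transcripts in the split above, which includes both granzymes, so the granzyme rises rest on few cells. These ratios count UMIs and not cells, here and for the cell cycle genes below. In CD8 cells 1 was higher, the chemokine Ccl4 (2.20, 1.53 to 2.93), and 3 lower, led by S100a4 (-2.40) and Gzmb (-1.65), and without those barcodes 2 were higher and 4 lower. All 5 cell cycle genes were past the fold in both gates but in opposite directions: Top2a was at 3.81 and Mki67 at 3.66 in CD4 cells, and Pclaf at -2.49 and Birc5 at -1.75 in CD8 cells. Without the S100a8 and S100a9 barcodes 5 were higher in CD4 and 4 lower in CD8 cells, where Birc5 was at -0.61 (-1.27 to 0.05) and the median ratio -0.85 against -1.61 with them.

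Of the immediate early genes with 50 UMIs, 3 of 6 were lower in CD4 and 4 of 6 in CD8 cells, led in both by Fos (-1.75 and -2.45) and Dusp1 (-1.25 and -1.33). Without the S100a8 and S100a9 barcodes the CD4 count was again 3 of 6, but in CD8 cells 1 of the 4 genes with 50 UMIs was past the fold, Jun (-0.80), with a median of -0.22 against -0.81. Fos, on 18 high dose and 22 vehicle UMIs, and Dusp1, on 16 and 16, then had under 50 there, and Egr1 was at -0.15 (-0.88 to 0.60). Among 9 interleukin-7 path genes 1 was higher in CD4 cells, Cish (0.76, 0.22 to 1.32), a feedback inhibitor, and 0 of the 8 with 50 UMIs in CD8 cells. Of 17 paralogs of the members, 6 had 50 UMIs in CD4 and 4 in CD8 cells. Among these, Foxp4 (-1.04, -1.85 to -0.23) was lower in CD4 and Klf6 (-0.91, -1.31 to -0.52) in CD8 cells. Of the 10 checkpoint and costimulatory genes, 6 had 50 UMIs in CD4 cells, where Icos (1.36) and Tnfrsf4 (1.00) were higher. In CD8 cells only 2 of them had 50 UMIs, and 0 were past the fold. In CD8 cells of the library labelled spleen, where the summed members were lower at the high dose, 4 of 15 effector genes were higher, led by Ifng (1.70) and Gzmb (1.21), as were 3 of 5 cell cycle genes, led by Mki67 (2.37) and Top2a (1.71), where 10.3% of all genes were past the fold.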

How the data were processed

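The authors processed the reads with Cell Ranger on mm10 (version 6.0.0 in the submitters' processing notes, 5.0.0 in the matrix headers, another in the study's methods) and deposited raw UMI counts per gene and barcode, with hashtag counts in the same matrices; no cell annotation was used here. Hashtags were called with HTODemux (quantile 0.99) in Seurat 5.3.0 under R 4.3.3, each library on its own. Counts of gated cells were summed and divided by their UMI total; library totals were 79585807 and 35672251 UMIs over 9591 and 4830 barcodes. Doublets were those of the hashtag call. With 1 pooled sample per group, no test was run. The ratio, interval and call rule were tested on simulated counts with counting error alone. That cannot show how they hold under spread between cells or mice. All 10 members were named, and of each other list the 2 largest rises and falls past the fold. Positions are from GENCODE M21 (GRCm38). The members and lists were chosen with earlier results of these data known. One planned gene is not reported here, so cells were split by effector transcripts alone, a split chosen after seeing the data. Alternatives covered hashtag caller, gates, cell filters, scaling, thinning and Scrublet (scanpy 1.11.5). Intervals and limits from a count of 0 (3 counts) cover counting error only.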

Additional observations from a re-analysis of the deposited data

Results flagged for a closer look

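Several ratios to vehicle ran in opposite directions in the libraries with intervals clear of 0 in both; the difference between libraries was not tested. In CD8 cells at the high dose the summed members read 0.19 under the liver label and -0.64 under the spleen label, with Il7r at 0.20 (0.09 to 0.30) and -1.33 (-1.99 to -0.65), and Dapl1 at 0.66 and -4.23 (-9.76 to -1.19), the last on 6 UMIs of 1 vehicle cell. Igfbp4 in CD8 cells at the low dose read 0.50 and -1.53 (-2.84 to -0.28). In CD4 cells at the high dose Igfbp4 read 0.17 (0.02 to 0.33) and -2.11 (-3.17 to -0.88), the latter against 4 vehicle cells. Under the liver label 4 members had intervals above 0 in that comparison. Without barcodes at or over 1% S100a8 and S100a9 1 member did, at most 0.43. T cells without a hashtag call in the library labelled spleen entered no comparison under the reported hashtag call. They summed to 2443 CPM (2265 to 2631), above the 769 CPM of called vehicle T cells. They were also above called high dose T cells, whose hashtag was their dominant one.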

How the results depend on the processing

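The high dose ratios are given for each alternative as summed members and members past the fold. The share of all genes past the fold was not taken under most alternatives. In all T cells of the library labelled liver it was 33.1% as reported, 5.30% for the low dose and 6.71% without barcodes at or over 1% S100a8 and S100a9. The counts below therefore show only how the calls move with processing, and nothing about the members is read from them. In all T cells of the library labelled liver (0.67 and 9) they were 0.57 and 5 with at least 3 Cd3 UMIs, 0.073 and 0 with a T cell receptor UMI required, 0.21 and 0 without cells holding a B cell, neutrophil or macrophage UMI, 0.21 and 0 for the low dose, 0.45 and 4 for both doses together, 0.28 and 1 as the mean over cells, 0.44 and 3 without the 20 most abundant genes, 0.29 and 1 thinned to 1000 UMIs, and 0.00094 and 0 without barcodes at or over 1% S100a8 and S100a9. The dominant hashtag gave 0.71, and a fold of 2 gave 1 member. In that library, CD4 cells (0.07 and 0) had 1 member past the fold by dominant hashtag and 1 when thinned, and sums of -0.080 without B cell, neutrophil or macrophage UMIs, 0.012 without Foxp3 cells and -0.0043 without the S100a8 and S100a9 barcodes. CD8 cells (0.19 and 1) gave -0.0078 and 0 at the low dose, 0.10 and 0 for both doses, 0.10 and 0 as the mean over cells, -0.014 and 0 thinned, and 0 members at a fold of 2 or without B cell, neutrophil or macrophage UMIs, 2 members by dominant hashtag and a sum of 0.11 without the S100a8 and S100a9 barcodes. In all T cells of the library labelled spleen (0.0069 and 4) they were -0.23 and 1 with a T cell receptor UMI, 0.27 and 2 for the low dose, -0.16 and 1 as the mean over cells, -0.18 and 2 without the top 20 genes, and -0.13 and 1 without the S100a8 and S100a9 barcodes. The sum was 0.29 by dominant hashtag, and the count 2 by MULTIseqDemux, 2 with 3 Cd3 UMIs, 2 for both doses, 1 at a fold of 2, 1 without B cell, neutrophil or macrophage UMIs and 0 thinned. CD8 cells there (-0.64 and 3) had 1 member at the low dose, a sum of -1.06 as the mean over cells, and -0.91 with 0 members when thinned. Members past the fold as reported that changed sign were, in the T cells of the library labelled liver, S1pr1 (-0.053 with a T cell receptor UMI), Il7r (-0.15) and Dapl1 (-0.00046) at the low dose, and Lef1 (-0.074), Tcf7 (-0.018), Il7r (-0.064), S1pr1 (-0.14) and Satb1 (-0.057) without the S100a8 and S100a9 barcodes. Dapl1 in CD8 cells of that library read -0.15 at the low dose. In the library labelled spleen these were Klf2 (0.24 at the low dose) and S1pr1 (-0.042 as the mean over cells, -0.067 thinned) in T cells and Bcl11b in CD8 cells (-0.23 at the low dose). Members short of the fold that changed sign, such as Il7r in CD8 cells of the library labelled liver at the low dose, are not listed. The cause of these changes was not tested. The S100a8 and S100a9 alternative was chosen after seeing the data. Of 679 member ratios under an alternative, 520 lay within the interval of the reported ratio. Of the summed ratios, counts past the fold and shares of cells under an alternative, 88 stayed the same and 70 moved. A ratio or share moved when it left the reported interval, and a count when it changed by over 1.5-fold or to or from 0. Shares of cells with at least 3 members were 30.1%, 30.7% and 37.1% in CD4 and 31.0%, 28.3% and 32.8% in CD8 cells at 500 UMIs (vehicle, low, high), and 97.7%, 98.3%, 98.5%, 98.4%, 98.1% and 99.0% without thinning. Scrublet marked 2.44% of barcodes under the liver label, and 0 of 4830 under the spleen label, for which no value was given. No paired analysis was possible because each group is 1 pooled sample per library. For the same reason no replicate could be left out.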
